A study of Homo sapiens with 2 samples.

Results

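The immediate early transcription factor genes FOS, FOSB, FOSL1, FOSL2, JUN, JUNB, EGR1, NR4A1, NR4A2 and NR4A3 were followed in sorted KYSE-140 cells. Every probe set that the platform annotation assigned to one of them was taken, which gave 25 probe sets for 10 genes, out of 54675 probe sets and 19775 gene symbols on the array. KYSE-140 is a long-used cell line grown from a human squamous cell carcinoma of the esophagus. Its cells were divided by flow cytometry into a CD90+ and a CD90- fraction, with CD90 being the surface glycoprotein encoded by THY1, and total RNA of each fraction went onto 1 Affymetrix U133 Plus 2.0 array. No other treatment, genotype or time was given for either fraction, and both passed through the same kind of sort. The line stands for 1 tumour, and unsorted cells were not among the samples analysed here, so no value shows the level before sorting.

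Immediate early genes are transcribed within minutes of a stimulus without new protein synthesis, and their mRNAs are short-lived. FOS and JUN proteins pair through leucine zippers to form AP-1, which binds TGACTCA, the TRE, and the related cyclic AMP response element TGACGTCA, the CRE. EGR1 is a zinc finger factor of the growth factor response, and NR4A1, NR4A2 and NR4A3 are orphan nuclear receptors. In squamous epithelium AP-1 takes part in both growth and terminal differentiation, and in many tissues the same genes are induced when cells are dissociated or handled.

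The data were 2 samples, 1 per fraction, with no replicate sort, so no difference carries a replicate error and no test between fractions was possible. The signal is the MAS5 value, in arbitrary units, and the array medians over probe sets other than controls were 72.1 and 71.1. A floor of 71.6, the geometric mean of these medians, was used, and a probe set was called measured when it reached the floor on at least 1 array. Folds were taken after lower signals had been set to the floor. A fold with 1 side under the floor is a lower bound, and no fold is given where both sides were under it. The number of arrays limits the precision. Probe sets of the same gene gave log2 ratios with a pooled SD of 0.31 over 5641 genes, a measure of noise within an array that says nothing of how sorts vary. THY1 was at least 3.41-fold higher in the CD90+ fraction on each of its 3 probe sets. Of the keratinocyte and epithelial markers, all 7 with a probe set were measured, among them KRT5 at 19357 in CD90+ and 19208 in CD90- cells, whereas 0 of 4 leukocyte, 1 of 5 endothelial and 2 of 7 fibroblast markers were. Of the fibroblast markers COL1A1, a fibrillar collagen, read 2125 in CD90+ and 1240 in CD90- cells and was higher on 3 of 3 probe sets, PDGFRA read 107 on both arrays, and COL1A2, COL3A1, DCN, LUM and PDGFRB stayed under the floor. The summed signal of the 7 was 2391 against 1471. The ratio of 3' to 5' control signal was 13.0 in CD90+ and 15.7 in CD90- cells for ACTB, and 1.04 and 0.97 for GAPDH. The part of RNA quality in the results was not tested. In bulk RNA, fewer cells that express a gene and less of its RNA per cell cannot be told apart.

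Upstream sequence was available for 8 of the 10 genes, all but FOSL1 and NR4A2, in the RefSeq promoter table of GRCh38.p14. Of it, the 250 bases before the first listed start site of each gene were searched. Any other start site of a gene was not searched. The 3 stretches below are shown because they belong to a gene that differed by at most 1.18-fold on any of its probe sets and holds a serum response motif (EGR1), to the founding AP-1 gene (FOS), and to an NR4A gene whose 2 measured probe sets, both of the _x_at class, read lower in CD90+ cells (NR4A1). They lie at chr5:138465229-138465478, chr14:75278578-75278827 and chr12:52022582-52022831, all on the plus strand, and are written 5' to 3' in the direction of transcription. Capitals mark CArG boxes, which bind serum response factor, and the shorter CRE core TGACG on either strand.
EGR1: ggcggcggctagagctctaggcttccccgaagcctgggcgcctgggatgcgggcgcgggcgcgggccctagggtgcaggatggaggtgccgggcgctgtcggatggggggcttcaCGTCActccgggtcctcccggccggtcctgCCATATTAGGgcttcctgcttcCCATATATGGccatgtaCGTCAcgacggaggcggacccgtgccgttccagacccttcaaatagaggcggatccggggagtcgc
FOS: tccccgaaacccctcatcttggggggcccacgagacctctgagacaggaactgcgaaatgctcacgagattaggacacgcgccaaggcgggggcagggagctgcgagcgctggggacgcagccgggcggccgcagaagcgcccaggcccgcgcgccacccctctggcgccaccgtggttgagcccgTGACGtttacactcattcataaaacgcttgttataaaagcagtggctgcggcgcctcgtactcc
NR4A1: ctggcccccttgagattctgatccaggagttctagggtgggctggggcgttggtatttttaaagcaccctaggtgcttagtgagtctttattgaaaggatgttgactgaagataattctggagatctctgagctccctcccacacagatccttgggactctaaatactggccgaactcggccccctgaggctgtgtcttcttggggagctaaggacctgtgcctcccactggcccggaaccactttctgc

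The CRE core TGACG, read on both strands and contained in the full CRE, was present in 7 of the 8 stretches, in JUN, JUNB, FOS, FOSB, FOSL2, EGR1 and NR4A3 but not in NR4A1. Over 27305 promoters, 21.7% held it in the same 250 bases. EGR1 held CArG boxes spelled CCATATTAGG and CCATATATGG, beginning 105 and 83 bases before the start site, and 1.14% of promoters held a CArG box. The TATA element TATAAA was found in FOS, JUNB and FOSB, 3 of the 8, against 11.1% of promoters. The full CRE TGACGTCA (1.77% of promoters), the TRE TGACTCA (4.16%), the NR4A monomer element AAAGGTCA (1.05%) and the EGR sites GCGTGGGCG (0.71%) and GCGGGGGCG (4.68%) were not found in these 8 windows. A match describes letters and is not a binding site. A missing match, such as that of a CArG box in FOS, covers this window and start site alone.

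Of the 10 genes, 7 were measured by the probe set that stood for the gene, the brightest outside the _x_at class. Probes of that class can also match transcripts of other genes. Of these 7, NR4A2 was at least 2-fold lower in CD90+ cells and 6 lay within 2-fold. Across all 12466 measured genes 4.22% were at least 2-fold apart, 2.47% higher and 1.75% lower in CD90+ cells, and a count of 1 in 7 genes is too small to be read as a departure from them. At 1.5-fold the members apart were FOSL1, higher, and NR4A2, lower, where 14.1% of all measured genes were apart, 7.37% higher and 6.76% lower. The median log2 ratio of the 7 genes was 0.14, and that of all measured genes was 0.01. AP-1 and EGR1 probe sets leaned slightly to CD90+ cells, with 12 of the 13 measured ones above a log2 ratio of 0. Of the 4 measured NR4A probe sets 0 were above 0, and of all measured probe sets with 1 gene 49.8% were. The AP-1 and EGR1 count and the NR4A count were the same after quantile normalization, centring on the median and loess. Over all measured probe sets with 1 gene, 11915 of 23593, 12132 of 23595 and 12130 of 23585 were then above 0. Probe sets of one gene share its transcript, so they are not independent. The 4 NR4A probe sets belong to NR4A1 and NR4A2. Of these 4, 1 of NR4A2 reached the floor in CD90- cells alone, and the others were of the _x_at class. The NR4A count therefore gives no direction for the family.

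**Figure D1:**
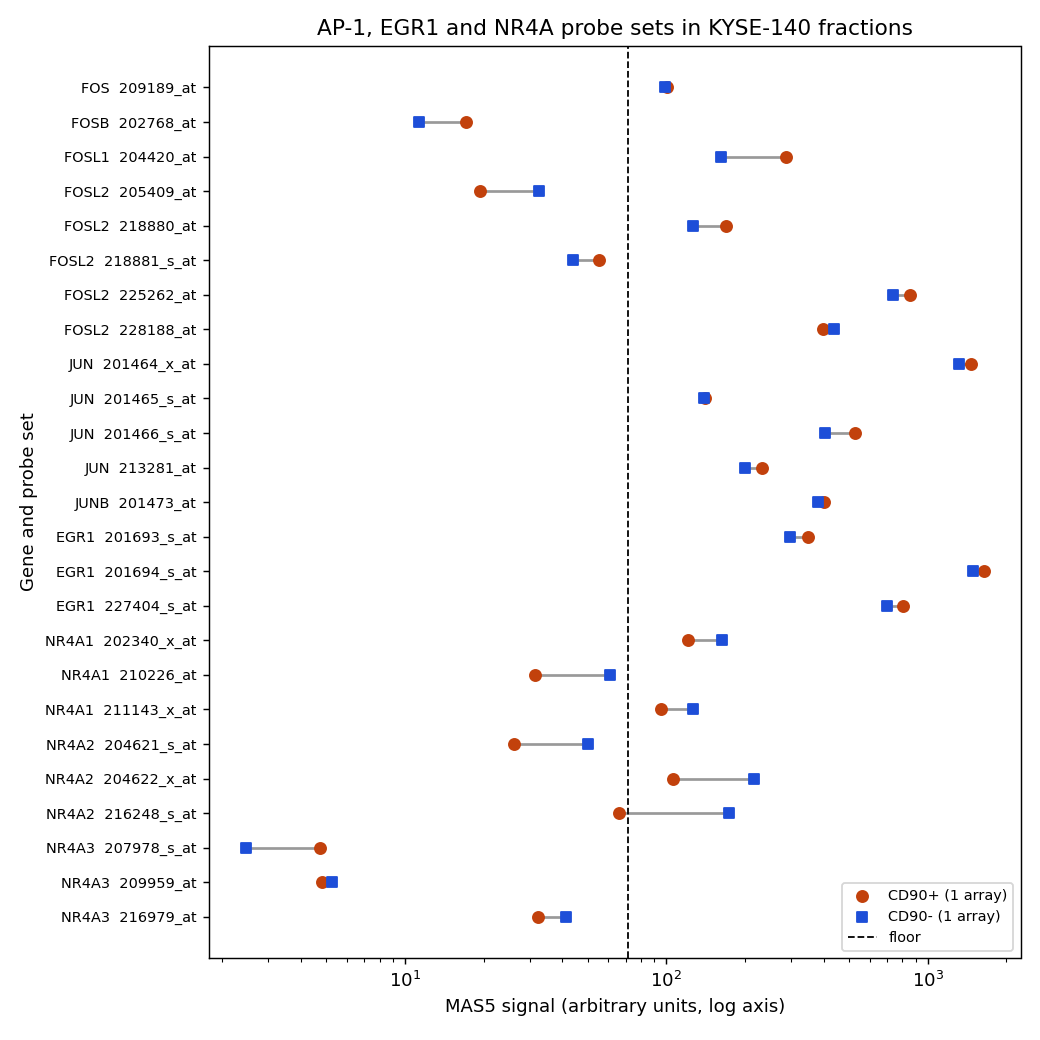
MAS5 signal (arbitrary units, log axis) of all 25 probe sets of the 10 genes, with the CD90+ array as circles, the CD90- array as squares and the floor of 71.6 as a dashed line. Most pairs nearly coincide, FOSL1 lies to the right in CD90+ cells, the 4 NR4A1 and NR4A2 probe sets that reach the floor lie to the left, and 8 probe sets stay under the floor on both arrays.

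The JUN family differed by at most 1.31-fold between the fractions on any probe set. JUN, the AP-1 subunit that can pair with itself or with a FOS protein, was covered by 4 probe sets. The one that stood for the gene gave a signal of 526 in CD90+ cells and 403 in CD90- cells, 1.31-fold higher in the former. The others read 233 against 199, 141 against 139 and, in the cross-hybridising class, 1465 against 1317. All 4 were thus higher in CD90+ cells, but by log2 ratios of only 0.02 to 0.39, with an SD of 0.15 among them. The highest, 0.39, was a little above the pooled SD of 0.33 for genes of that brightness, meaning a brightest signal of 4 to 16 times the floor. JUNB, a JUN relative that is a weaker activator, read 400 against 381 on its 1 probe set, a log2 ratio of 0.07.

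In the FOS family FOSL1 had the largest difference among the measured probe sets. FOS itself, the classical serum-induced gene, read 101 in CD90+ and 98.6 in CD90- cells on its 1 probe set. Both values lay a little above the floor, and the log2 ratio was 0.03. FOSB, its close relative, read 17.1 against 11.3, under the floor on both arrays, so no fold is given. FOSL1, which encodes FRA-1, an AP-1 subunit often abundant in invasive carcinoma cells, read 286 against 161, 1.77-fold higher in CD90+ cells. Its log2 ratio of 0.82 was reached or exceeded by 3.79% of measured genes and was larger than the pooled SD of 0.40 for genes whose brightest signal was under 4 times the floor. The 50 measured genes nearest to FOSL1 on chromosome 11 had a median log2 ratio of 0.22, so 0.60 remained after subtracting it. With 1 probe set, FOSL1 has no second reading on these arrays.

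FOSL2, which encodes the related subunit FRA-2, had readings on both sides of 0. Its brightest probe set gave 856 in CD90+ cells against 738 in CD90- cells, with a log2 ratio of 0.21. The next read 398 against 438, a log2 ratio of -0.14, and another read 169 against 127, a log2 ratio of 0.42. The remaining pair read 55.1 against 43.8 and 19.3 against 32.6, under the floor on both arrays. The SD of the 3 measured log2 ratios was 0.28, larger than the ratio of the brightest, and the direction depended on the probe set.

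The 3 probe sets of EGR1 agreed closely with each other. They read 1635 in CD90+ against 1486 in CD90- cells, 801 against 701, and 349 against 296. The 3 log2 ratios ran from 0.14 to 0.24 with an SD of 0.05. All were higher in CD90+ cells, yet by less than the pooled SD of 0.28 for genes of this brightness. Transcript of EGR1, whose upstream stretch with the CArG boxes is printed above, was therefore well above the floor in both sorted fractions and differed by at most 1.18-fold.

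Signals of the NR4A genes lay near or under the floor, and NR4A2 was the measured member with a log2 ratio below 0. NR4A2, or NURR1, an orphan receptor best known from dopamine neurons and induced by many stimuli, read 66.1 in CD90+ and 173 in CD90- cells on the probe set that stood for it. The CD90+ value lay under the floor, so NR4A2 was at least 2.42-fold lower there (log2 ratio -1.27). A second probe set, of the cross-hybridising class, had both values above the floor and read 106 against 216, 2.04-fold lower. The third read 26.0 against 50.3, under the floor on both arrays, so it gives no direction. Both measured probe sets were thus lower in CD90+ cells, although the first of them was measured through its CD90- value alone.

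Among all measured genes 0.88% had a log2 ratio as low as that of NR4A2 or lower, and 2.09% of genes in its brightness range were at least 2-fold lower. The log2 ratio was 3.19 times the pooled SD of 0.40 for genes of this brightness. That SD comes from floored ratios of probe sets within a gene. It holds no error between sorts, so the multiple is not a test. The 50 measured genes nearest to NR4A2 on chromosome 2 were themselves lower in CD90+ cells, with a median log2 ratio of -0.40, and -0.87 remained for NR4A2 after subtracting it. As the CD90+ signal lay under the floor, the difference that remained is a bound too. The part of this regional shift in the NR4A2 result was not tested. NR4A2 was not measured when the floor was raised to 397, the 75th percentile, or when the _x_at, _s_at and _a_at classes were left out, since it has no probe set outside them.

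NR4A1, or NUR77, the receptor induced in lymphocytes by antigen and in many cells by growth factors, had 3 probe sets. The probe set that stood for the gene read 31.3 in CD90+ and 61.0 in CD90- cells, under the floor on both, so by this rule the gene was not measured. The other pair, both of the cross-hybridising class, read 121 against 163 and 95.0 against 126, with log2 ratios of -0.43 and -0.41. The probe sets of NR4A1 above the floor were thus 1.35-fold and 1.33-fold lower in CD90+ cells. NR4A3, or NOR1, read 32.2 against 41.2, 4.81 against 5.26 and 4.72 against 2.46. None of its probe sets reached the floor on either array, so they give no direction.

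**Figure D2:**
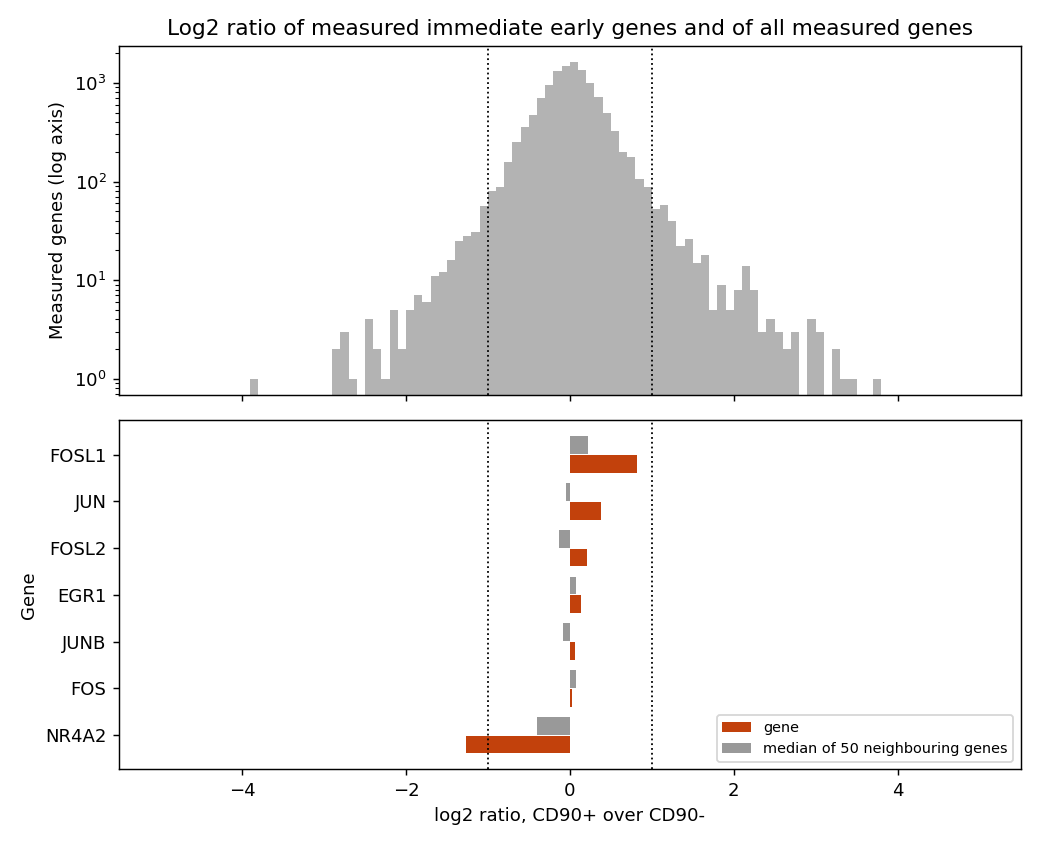
The upper panel counts all 12466 measured genes (log axis) by log2 ratio, CD90+ over CD90-, and the lower panel gives the log2 ratio of the 7 measured immediate early genes and the median of the 50 measured genes nearest to each on its chromosome. Dotted lines mark 2-fold; NR4A2 at -1.27 is the member beyond them, FOSL1 at 0.82 comes nearest on the other side, and the neighbours of NR4A2 have a median of -0.40.

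Other AP-1 partners of the JUN and FOS proteins lay mostly within 2-fold. Of 12 measured genes in this list 1 was at least 2-fold higher in CD90+ cells, 0 lower and 11 between, with a median log2 ratio of 0.04. Over all measured genes 2.47% were higher and 1.75% lower, and 1 in 12 is too small a count to compare. The 1 was JDP2, a bZIP protein that represses AP-1, at 456 against 224, 2.04-fold higher, a log2 ratio of 1.03. Under the 75th percentile floor of 397 its CD90- signal was set to the floor, so the log2 ratio of 0.20 there is a lower bound. ATF3, a stress-induced bZIP factor picked once the values were known, read 347 against 239, 1.45-fold higher. JUND, the JUN relative that is expressed without a stimulus, read 3352 against 4053, 1.21-fold lower.

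Early response genes outside the AP-1, EGR1 and NR4A set went both ways. Of 34 measured 1 was at least 2-fold higher in CD90+ cells, 1 lower and 32 between, and the median log2 ratio was -0.03, with 15 above 0. Over all 12466 measured genes 2.47% were higher and 1.75% lower at 2-fold, and 6384 lay above 0. CCN2, a matricellular protein, read 416 against 134, 3.11-fold higher, a log2 ratio of 1.64 that shrank to 0.07 under that floor. NFKBIZ, a nuclear regulator of NF-kB, read 492 against 1181, 2.40-fold lower, but its least changed probe set had a log2 ratio of -0.30. At 1.5-fold 7 of the 34 were higher and 3 lower, where 7.37% of all measured genes were higher and 6.76% lower. Picked once the values were known, CCN1, a relative of CCN2, read 1904 against 1035, and KLF2, a zinc finger factor, 312 against 179. On the lower side ZFP36, which destabilises short-lived mRNAs, read 401 against 616, and DUSP2, a MAP kinase phosphatase, 179 against 301. DUSP1, the phosphatase induced together with FOS, read 224 against 235, lower on only 1 of its 2 measured probe sets, and IER2 1934 against 2449. ARC and EGR3, induced by neuronal activity and growth factors, stayed under the floor in both fractions.

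Of the kinases and factors that drive these genes, none of the 24 measured was at least 2-fold apart, and the median log2 ratio was 0.06. Of all measured genes 4.22% were, so a count of 0 in 24 is too small to be read as a departure. The 2 brightest by mean log2 signal were ELK3, a partner of serum response factor, at 2135 against 1930, and MAPK9, a JUN kinase, at 1948 against 2021. RPS6KA3, an ERK-activated kinase, read 1647 against 2375, 1.44-fold lower. SRF itself, which binds CArG boxes, read 511 against 369, and MAP2K4, the JNK kinase, 409 against 796, 1.95-fold lower, although only 1 of its 2 measured probe sets was lower. Among 8 measured cofactors and turnover factors 0 were 2-fold apart, too few genes to set against that 4.22%, with a median log2 ratio of 0.02. The 2 brightest were COPS5, a JUN coactivator, at 5123 against 4977, and NAB1, a corepressor of EGR1, at 3370 against 3708. NAB1 was lower on 2 of its 3 measured probe sets. RXRA, the retinoid X receptor that pairs with NR4A1 and NR4A2, read 1788 against 1229, 1.45-fold higher, on 1 of its 2 measured probe sets, and the other went the opposite way.

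AP-1 target genes had log2 ratios from -3.87 to 3.38. Those of the measured FOS and JUN family members ran from 0.03 to 0.82 by the probe set that stood for each gene. A further FOSL2 probe set had -0.14, and among the other AP-1 partners JDP2 had 1.03 and JUND -0.27. Of 15 measured targets 5 were at least 2-fold higher in CD90+ cells, 3 lower and 7 between, where 2.47% of all measured genes were higher and 1.75% lower. The median log2 ratio of the targets was 0.30. The higher ones were MMP1 (at least 10.4-fold), MMP10 (4.40-fold), PLAU (3.19-fold), the protease inhibitor TIMP1 at 1499 against 574 (2.61-fold) and VIM (2.38-fold). The lower ones were the cornified envelope genes SPRR1B (14.6-fold) and SPRR1A (at least 4.65-fold) and the heme oxygenase HMOX1 (2.30-fold). These targets are under other factors too, and several of them were among the largest differences of these arrays when the list was drawn up, so the list is not independent evidence of AP-1 activity. VIM, TIMP1 and PLAU were higher in the same fraction as COL1A1, 1 of 7 fibroblast markers. Of the other markers PDGFRA read 107 on both arrays and the rest stayed under the floor. The part of fibroblast-type transcripts in the values of VIM, TIMP1 and PLAU was not tested. Under the 75th percentile floor 3 of 10 measured targets were at least 2-fold higher and 1 lower. Of all 8118 genes measured under that floor 89 were higher and 66 lower. PLAUR, the urokinase receptor, read 616 against 354 and CCND1, cyclin D1, 5561 against 3300, both picked once the values were known. PLAUR was higher on 2 of its 3 measured probe sets.

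ERK feedback genes, which follow the same growth factor signal as EGR1 and FOSL1, had 0 of 12 beyond 2-fold and a median log2 ratio of -0.25, with 9 of 12 below 0. Of all 12466 measured genes 4.22% were beyond 2-fold and 6082 lay below 0. The 2 brightest were PHLDA2 at 7666 against 4599, higher on 2 of its 3 measured probe sets, and PHLDA1 at 6467 against 7849. SPRY4, an inhibitor of receptor tyrosine kinase signalling, read 130 against 212, and DUSP6, the ERK phosphatase, 3176 against 4076. Heat shock genes, a second class induced by handling, had 0 of 10 measured beyond 2-fold and a median of 0.09. A count of 0 in lists of 12 or 10 genes is too small to be read as a departure from 4.22%. The 2 brightest were the chaperones HSP90AA1 at 33492 against 33876 and HSPD1 at 30891 against 32182, and DNAJB1, a stress-induced co-chaperone, read 3493 against 2995. These directions held on 1 of 4 measured probe sets of HSP90AA1, 2 of 3 of HSPD1 and 1 of 2 of DNAJB1. HSPA1A and HSPA1B were not analysed here.

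**Figure D3:**
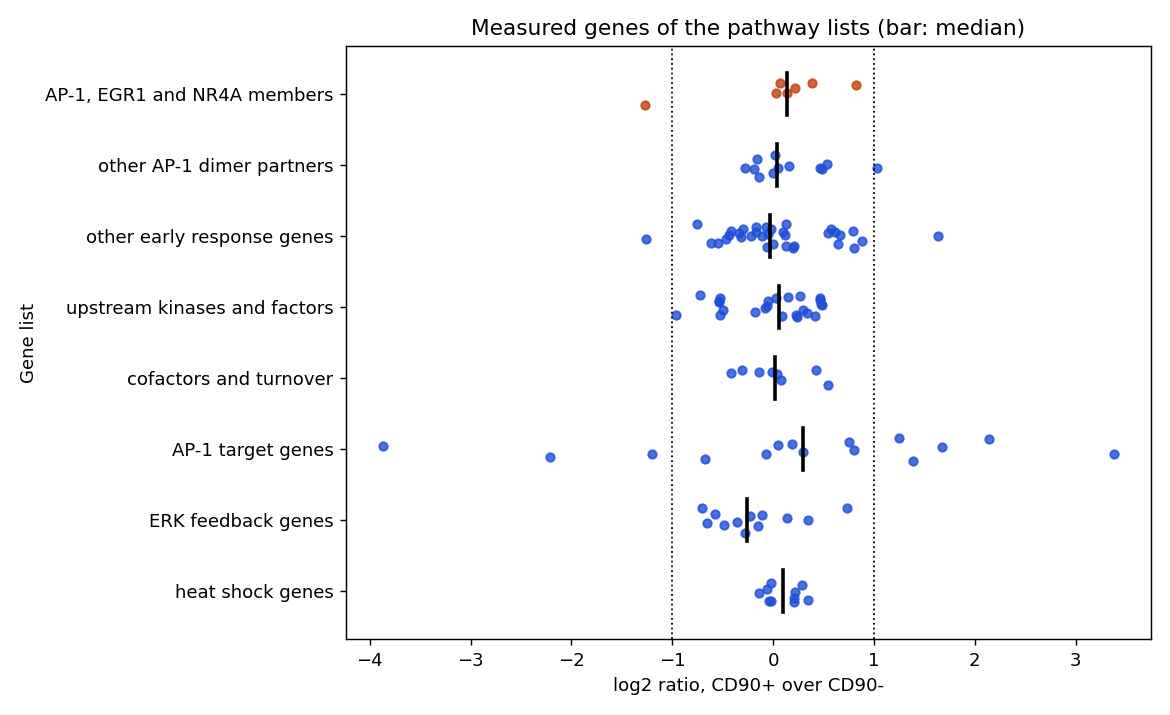
Log2 ratio, CD90+ over CD90-, of each measured gene in the 10-gene set and in 7 related lists, with 1 point per gene, a bar at the median and dotted lines at 2-fold. The heat shock and cofactor genes cluster near 0, the ERK feedback median lies at -0.25, and the AP-1 target genes run from -3.87 to 3.38.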

How the data were processed

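The 2 arrays, 1 of CD90+ and 1 of CD90- KYSE-140 cells, were grouped by the cell population label. The authors made the deposited intensity values with MAS5, per the submitters' processing notes, which name no version. They are linear signals, and the trimmed mean (2 to 98%) was 500.1 for each array, so both share one scale. The subtraction of mismatch probes in MAS5 leaves dim signals noisy. The platform annotation gave 1 symbol to 41097 probe sets and several to 1801, which were left unnamed, and 62 controls were left out. Identifiers of 41043 matched the RefSeq gene table of GRCh38.p14.

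From these values log2 ratios above the floor were computed. The brightest probe set stood for a gene, an _x_at set only where there was no other. The text names every member, and in each list every gene at least 2-fold apart or else the 2 brightest by mean log2 signal, the measure that also chose probe sets; any further list gene was picked once the values were known. The members and lists were chosen with earlier results of these data known. Alternatives were 3 other treatments of the floor, 3 scalings (quantile, median and loess with a span of 0.3), 3 probe set rules and a threshold of 1.5-fold. Code was tested on simulated data. Tools were Python 3.11.15, numpy 2.4.6, pandas 2.3.3, statsmodels 0.14.6 and matplotlib 3.10.9.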

Additional observations from a re-analysis of the deposited data

How the results depend on the processing

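No paired analysis was possible because each fraction has 1 array and no test was made. NR4A2 stayed below 0 in all 7 alternatives that gave it a value, from -1.39 to -1.03 on the log2 scale. Its 2 measured probe sets had log2 ratios of -1.27 and -1.03, so the probe set rules and lower floors could not turn its sign. The scalings gave -1.27 to -1.26, so the shared sign says little about how stable NR4A2 is. FOSL1 read 0.82 to 0.86 in 8 alternatives, but most of these could not change it. It has 1 probe set, outside the _x_at, _s_at and _a_at classes and above the main floor on both arrays. The probe set rules, the 25th percentile floor and no floor therefore returned 0.82 by construction. The scalings gave 0.84 to 0.86, so the narrow range says little about how stable FOSL1 is. The count of members at least 2-fold apart was 0 under the 75th percentile floor and 0 without the _x_at, _s_at and _a_at classes, both of which leave NR4A2 without a value, and 2 at 1.5-fold. FOSL2 turned to -0.14 by its least changed probe set. The count over all measured genes, 526, was 922 with no floor, 1957 under the 25th percentile floor, 155 under the 75th percentile floor and 1762 at 1.5-fold. Over the 7 lists 11 of 115 measured genes were 2-fold apart, against 4.22% of all measured genes. Of these 11, 8 were AP-1 target genes, a list drawn up with several of these differences known. The pooled count is therefore no evidence of an excess. The count over the lists was 5 of 85 under the 75th percentile floor, where 155 of all 8118 measured genes were apart. At 1.5-fold it was 27 of 115, where 14.1% of all measured genes were apart. Under that higher floor JDP2 and CCN2 had log2 ratios of 0.20 and 0.07, and PLAU and MMP1 0.67 and 0.91. The CD90- signals of these genes were raised to that floor, so the values are lower bounds. The median log2 ratio of the members ran from 0.02 to 0.21. Signals under the floor carry no order, which limits FOSB, NR4A1 and NR4A3.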
